A study of Mus musculus with 6 samples.

Results

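Interferon-stimulated genes were followed in 38 genes listed by symbol, of which 36 had a row among the 32285 genes of the matrices, while Mx1 and Mx2 were not analysed here. The list covers sensors of viral RNA and DNA, interferon signaling proteins, the IFIT and OAS families, other antiviral effectors, and interferon-inducible GTPases. The lungs came from 6 male hCTLA4 mice, a knockin strain on a C57BL/6 background that carries part of the human CTLA4 gene so that the human antibody can bind, aged 12 weeks in the labels. All 6 mice had been given bleomycin, a drug that injures the lung, at 1.25 U per kg in 2 oropharyngeal doses 2 weeks apart. From day 21, 3 mice received the anti-CTLA4 antibody ipilimumab and 3 received an IgG1 isotype control, each given intraperitoneally at 5 mg per kg, 2 times a week over 4.5 weeks. Uninjured mice were not analysed here, so every level below is that of a bleomycin-injured lung. One 10x Genomics 3' single-cell library was made from the right lung of each mouse, and 24256 cells were used.

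Interferons are secreted proteins that warn cells of infection. Type I interferons bind the receptor made of Ifnar1 and Ifnar2, and type II interferon (interferon gamma) binds Ifngr1 and Ifngr2. Janus kinases at these receptors phosphorylate STAT proteins. A complex that includes Stat2 and Irf9 then binds the interferon-stimulated response element (ISRE) in front of many antiviral genes, and the gamma-activated site (GAS) lies in front of others. In the lung, endothelial cells line the capillaries, where they meet circulating leukocytes and their cytokines.

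The 6 libraries held 37666042 to 48612412 unique molecular identifiers (UMIs), and at most 8 cell barcodes were shared by any pair of libraries. Ipilimumab replicate 1 stood apart, with 22056 barcodes of at least 100 UMIs against 4834 to 6230 in the others and 78.86% of its UMIs in called cells against 92.41% to 93.05%. Cells were assigned to a type by gates of 6 marker genes each, and 9 of 20 gates had at least 10 cells in every mouse. Levels are given as CPM, the UMIs of a gene scaled to the same total of UMIs in every gate and mouse. The endothelial gate (Cldn5, Cdh5, Egfl7, Ramp2, Tie1, and Esam) held 156, 56, and 84 cells in IgG1 replicates 1 to 3 and 229, 123, and 190 in ipilimumab replicates 1 to 3. Of these 838 cells, 836 also fell in endothelial clusters, and 132 (15.8%) stood at the limit of the gate. The 6 gate markers together held 6360 to 8032 CPM in each mouse. In this droplet data, fewer transcripts per cell and fewer cells that express a gene cannot be told apart in a CPM value.

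By summed level, interferon-stimulated genes were most abundant in endothelial cells and classical monocytes. The 36 members together reached 4655, 5754, and 3215 CPM in endothelial cells of the IgG1 mice and 6700, 5952, and 7560 CPM in those of the ipilimumab mice. Classical monocytes, the blood monocytes that enter inflamed tissue, held 5416 to 7078 CPM over the 6 mice, and their range overlapped that of endothelial cells. Of their mean sum of 6207 CPM, Ifitm3 and Ifi27l2a alone had 3278 and 1573 CPM. In endothelial cells, with a mean sum of 5640 CPM, the largest members were Ifitm3 at 1088 CPM and Iigp1 at 1041 CPM. Fibroblasts followed with 3066 to 4886 CPM, nonclassical monocytes with 1890 to 3591 CPM, and neutrophils with 1640 to 2635 CPM, with overlap between neighbors in this order. Fibroblasts also overlapped endothelial cells, since IgG1 replicates 1 and 3 had endothelial levels inside the fibroblast range. T cells held 869 to 1076 CPM, above B cells (479 to 602 CPM), NK cells (452 to 521 CPM), and alveolar macrophages (302 to 379 CPM), and B and NK cells overlapped. Over the 6 mice, the sum in endothelial cells was 2.02 ± 0.42 (SD, n = 6) higher on the log2 scale than the median of the 8 other gates. RNA of empty droplets carried 985 to 1564 CPM of the members but made up an estimated 0.59% to 1.61% of the UMIs, and the log2 difference was 2.02 with that RNA subtracted.

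**Figure D1:**
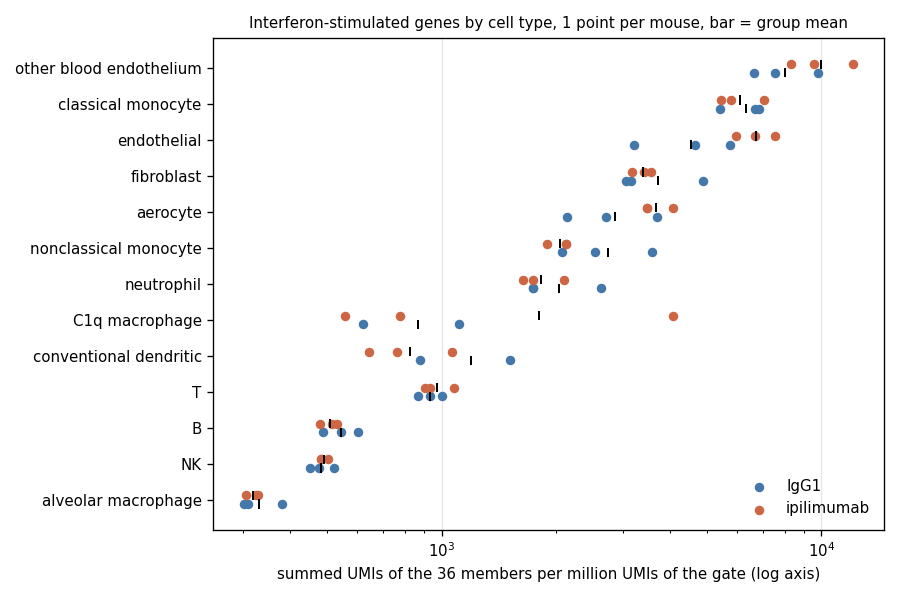
Summed level of the 36 members in each gated cell type (horizontal log axis, CPM), with 1 point per mouse and a bar at each group mean. The IgG1 endothelial points reach 5754 CPM and the ipilimumab points start at 5952 CPM, while classical monocytes span 5416 to 7078 CPM with the groups mixed.

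The sum hides that most members were led by endothelium and a few by myeloid cells. Of 36 members, 23 had their highest mean CPM in endothelial cells, 8 in classical monocytes, and 5 in neutrophils, and none in fibroblasts, nonclassical monocytes, alveolar macrophages, T, NK, or B cells. For 13 of the 23, the lowest endothelial mouse lay above the highest mouse of the next gate. The matching shares of all genes were not counted, so these counts describe the members and give no excess over other genes. Endothelial cells were 3.87% of the cells of these 9 gates and 2.39% of their UMIs, but they held 80.9% of the Ifi44 UMIs, 63.4% of the Ifit1 UMIs, and 59.6% of the Iigp1 UMIs. In the test against the mean log2 level of the 8 other gates (edgeR quasi-likelihood test with mouse as a block, calls needed an adjusted p below 0.05 and more than 1 on the log2 scale), 31 of 36 members were higher in endothelial cells and 2 were lower. Over all 11957 genes tested, 24.1% were called higher and 14.5% lower. The median log2 difference was 2.69 for the members and 0.04 for all genes. Where a gate had few or no UMIs of a gene, the fitted difference depends on the small count the model adds. The mice are the samples in these tests, and nothing in the labels pairs a mouse of one group with a mouse of the other.

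The 5 members with the largest endothelial excess were Iigp1, Ifi44, Ifit1, Ifit3b, and Gbp4. Iigp1, an immunity-related GTPase that acts on the vacuoles of intracellular parasites, ranged from 410 to 1484 CPM in endothelial cells. It had 151 to 634 CPM in fibroblasts and a mean of 25.9 CPM in T cells, and a mean of at most 1.49 CPM in each of the other 6 gates, and endothelium was above fibroblasts in 6 of 6 mice. Its log2 difference was 7.98 ± 0.16 (SE; edgeR adjusted p = 7.88e-43). Ifi44, an interferon-induced protein that restrains viral replication, ranged from 26.8 to 140 CPM in endothelial cells, was next highest in fibroblasts at a mean of 6.81 CPM, and had no UMI in nonclassical monocytes of any mouse. Its log2 difference was 7.21 ± 0.35 (SE; edgeR adjusted p = 1.26e-23). Ifit1, which binds viral RNA that lacks the host cap, ranged from 72.1 to 415 CPM, with a log2 difference of 5.81 ± 0.27 (SE). Its next highest gate was the fibroblasts, at 4.12 to 129 CPM, and the ranges of the gates overlapped although the endothelial value was higher in 6 of 6 mice. Ifit3b, a neighbor of Ifit1 in the same family, differed by 5.53 ± 0.39 on the log2 scale, and Gbp4, a guanylate-binding protein, by 5.13 ± 0.15 (SE). For Gbp4 the second gate was T cells, at 22.5 to 31.5 CPM against 70.2 to 185 CPM in endothelium, without overlap.

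The 5 members at the other end were Ifi27l2a, Oas3, Zbp1, Irf7, and Isg20. Ifi27l2a, a mitochondrial protein of the interferon response, was listed at 0 to 51.3 CPM in endothelial cells but at 1230 to 1919 CPM in classical monocytes. Fibroblasts, neutrophils, T cells, nonclassical monocytes, and B cells had means from 212 to 409 CPM of Ifi27l2a, and only NK cells, at 2.86 CPM, were below endothelium. Its log2 difference was -3.22 ± 0.27 (SE; edgeR adjusted p = 3.05e-15). Zbp1, a sensor of Z-form nucleic acids, ranged from 4.92 to 20.2 CPM in endothelial cells against 83.1 to 134 CPM in classical monocytes, a log2 difference from the mean of the gates of -1.37 ± 0.23 (SE; edgeR adjusted p = 7.19e-07). Oas3, which makes the 2'-5' oligoadenylates that activate RNase L, had at most 1.74 CPM in endothelial cells of any mouse, 62.9 to 132 CPM in neutrophils, and no UMI in fibroblasts, and its test gave no usable estimate. Irf7, the master factor of type I interferon genes, had 20.1 to 26.2 CPM in endothelial cells and 65.9 to 228 CPM in classical monocytes and was not called (log2 difference -0.18 ± 0.21, SE). Isg20, an exonuclease that degrades viral RNA, was highest in neutrophils (67.1 to 117 CPM against 3.36 to 20.2 CPM in endothelium) and was not called either (0.18 ± 0.24, SE).

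By role, all 9 GTPases and all 4 IFIT genes were called higher in endothelium, with median log2 differences of 3.01 and 5.04. Of the sensors, Ifih1 (also MDA5), Ddx58 (RIG-I), and Dhx58 (LGP2) were called higher and Zbp1 lower. Of the signaling genes, Stat2, Irf9, and Usp18 were called higher. Usp18, which removes Isg15 from proteins and blocks the type I receptor, had a mean of 77.5 CPM in endothelium and 7.30 CPM in the next gate, classical monocytes. Among the OAS genes, Oasl2 was highest in endothelium (mean of 196 CPM against 75.7 CPM in neutrophils), whereas Oasl1 was highest in neutrophils (51.9 CPM against 20.3 CPM in endothelium). Isg15, a ubiquitin-like modifier, and Rsad2 (viperin) were also highest in neutrophils, at 346 and 117 CPM against 193 and 21.8 CPM. Ifitm3, which blocks the entry of enveloped viruses, was highest in classical monocytes, at 3278 CPM against 1088 CPM in endothelium.

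**Figure D2:**
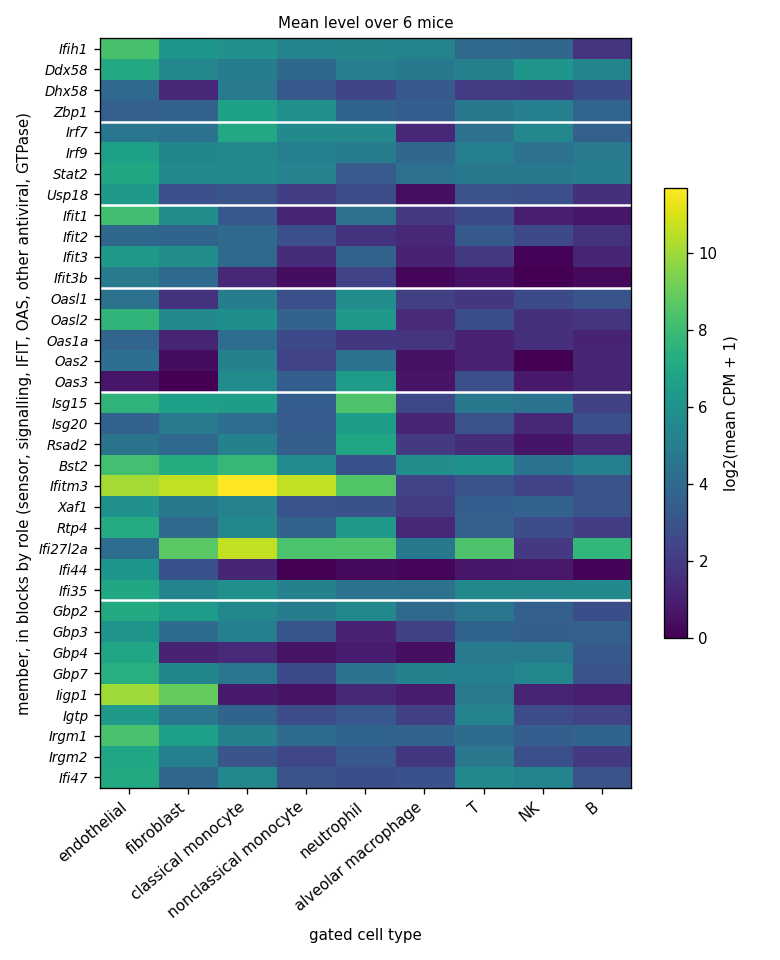
Mean CPM over the 6 mice of each of the 36 members (rows, in blocks by role) in the 9 gates with at least 10 cells in every mouse (columns), as log2(mean CPM + 1). The endothelial column is brightest for the GTPases and most IFIT genes, and Ifi27l2a, at 17.5 CPM there, is dark against 1573 CPM in classical monocytes.

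Gate by gate, endothelial cells kept an excess over each of the 8 others, but its breadth differed. Members were called higher against lower in 32 against 0 for alveolar macrophages, 32 against 1 for B cells, 29 against 3 for T cells, 27 against 1 for NK cells, and 24 against 2 for nonclassical monocytes. The excess was narrower against fibroblasts (19 against 2), neutrophils (19 against 9), and classical monocytes (18 against 6). The shares of all genes called higher in endothelium in those 8 comparisons were 24.0%, 27.4%, 25.5%, 26.3%, 25.1%, 17.7%, 35.4%, and 27.1%, in the same order. The shares called lower were 23.0%, 22.1%, 23.2%, and 18.1% for the first 4, 1525 of 7619 genes for nonclassical monocytes, and then 20.1%, 28.3%, and 22.1%. Against classical monocytes, the 6 lower members were Ifi27l2a, Ifitm3, Irf7, Oas2, Oas3, and Zbp1. Classical monocytes themselves had 21 members higher and 2 lower against the mean of their own 8 other gates (14.3% and 11.0% of all genes), and alveolar macrophages had 0 higher and 24 lower (21.2% and 13.7%).

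The sequence upstream of the members was compared with that of all genes. A promoter window of 250 bases before to 50 bases after the RefSeq start (GRCm38.p6) was found for 28 members, and it was not given for Iigp1, Dhx58, Oas2, Usp18, Gbp4, Ifi27l2a, Zbp1, or Rtp4. The ISRE core, GAAA, NN, and GAAA in a row, read on both strands, was present in 18 of the 28 members (64.3%) and in 3.99% of 27025 genes. The GAS core TTCNNNGAA was present in 9 of 28 (32.1%) and in 9.55% of genes. With the 250 upstream bases alone, the shares were 53.6% against 3.46% for the ISRE core and 7 of 28 members against 8.13% for GAS. Members with and without the ISRE core had median log2 differences between endothelium and the other gates of 2.79 (18 members) and 1.58 (10 members), with overlapping ranges, and Ifi44, the highest of these 28, had no match. The matches are letters in a window and were not measured as bound sites.

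The 250 upstream bases are printed, 5' to 3' on the strand of the gene, for members whose values recur below, with the ISRE core, on this strand or as its reverse complement (TTTC, NN, and TTTC), in capitals. The 3 IFIT neighbors on chromosome 19 are shown because they share a pair of matches. Isg15, Irgm1, and Igtp are shown for cores close to the start, and Oasl2 as a member with no match in these bases.
Ifit1 (chr19:34640639-34640888, plus strand): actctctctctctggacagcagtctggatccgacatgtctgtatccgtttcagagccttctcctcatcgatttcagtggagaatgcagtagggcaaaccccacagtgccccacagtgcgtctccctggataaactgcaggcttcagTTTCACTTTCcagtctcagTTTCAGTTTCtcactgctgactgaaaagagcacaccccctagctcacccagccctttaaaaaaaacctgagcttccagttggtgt
Ifit3 (chr19:34583279-34583528, plus strand): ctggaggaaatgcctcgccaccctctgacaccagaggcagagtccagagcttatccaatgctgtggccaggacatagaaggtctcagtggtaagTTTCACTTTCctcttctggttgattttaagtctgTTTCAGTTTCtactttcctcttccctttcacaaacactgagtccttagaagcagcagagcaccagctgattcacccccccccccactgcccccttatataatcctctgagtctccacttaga
Ifit3b (chr19:34607707-34607956, plus strand): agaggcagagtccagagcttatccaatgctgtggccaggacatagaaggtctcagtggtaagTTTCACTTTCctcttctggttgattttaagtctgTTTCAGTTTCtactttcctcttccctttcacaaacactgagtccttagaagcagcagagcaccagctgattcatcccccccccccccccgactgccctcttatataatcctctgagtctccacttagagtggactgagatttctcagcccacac
Isg15 (chr4:156200819-156201068, minus strand): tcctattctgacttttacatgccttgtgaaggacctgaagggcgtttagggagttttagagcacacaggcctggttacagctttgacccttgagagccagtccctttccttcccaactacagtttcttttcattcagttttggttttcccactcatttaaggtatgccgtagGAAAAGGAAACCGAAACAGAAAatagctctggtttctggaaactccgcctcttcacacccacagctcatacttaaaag
Irgm1 (chr11:48871421-48871670, minus strand): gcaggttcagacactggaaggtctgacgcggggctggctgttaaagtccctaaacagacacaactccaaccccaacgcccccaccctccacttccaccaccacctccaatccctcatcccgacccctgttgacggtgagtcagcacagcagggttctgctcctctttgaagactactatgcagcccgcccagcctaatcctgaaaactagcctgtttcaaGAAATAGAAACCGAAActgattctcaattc
Igtp (chr11:58199306-58199555, plus strand): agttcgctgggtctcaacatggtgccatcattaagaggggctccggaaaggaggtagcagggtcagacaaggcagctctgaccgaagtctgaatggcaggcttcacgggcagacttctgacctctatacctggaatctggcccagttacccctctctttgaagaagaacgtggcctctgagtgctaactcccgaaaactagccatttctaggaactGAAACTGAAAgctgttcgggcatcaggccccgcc
Oasl2 (chr5:114896684-114896933, plus strand): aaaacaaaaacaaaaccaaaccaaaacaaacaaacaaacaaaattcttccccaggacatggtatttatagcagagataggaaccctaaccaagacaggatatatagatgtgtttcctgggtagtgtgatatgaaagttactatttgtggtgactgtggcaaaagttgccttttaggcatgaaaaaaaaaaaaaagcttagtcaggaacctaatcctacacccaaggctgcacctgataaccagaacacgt
In Ifit1, Ifit3, and Ifit3b the same 2 decamers recur in the same order, and the first begins 104, 156, and 188 bases before the start. In Isg15, 3 overlapping cores form 1 run that begins 78 bases before the start, in Irgm1 2 cores overlap from 30 bases before it, and in Igtp the single core begins 34 bases before it. Igtp and Irgm2 overlap in the annotation on the same strand, and 6 members in all overlap another gene of their strand, so their UMIs could be shared. Of the 60-base stretches in the last 500 bases of the Ifit3 transcript, 12.9% also occur in Ifit3b, so their counts can mix as well.

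Within endothelium, the members were lower in aerocytes than in the other blood endothelial cells. Aerocytes are the large, thin capillary cells specialized for gas exchange, taken here as endothelial cells with a UMI of Car4 or Ednrb (62, 29, and 56 cells in IgG1 and 111, 44, and 76 in ipilimumab mice). The other blood endothelium, which includes the general capillary cells, had neither gene and no lymphatic marker. The 36 members summed to 2145 to 4078 CPM in aerocytes and 6659 to 12135 CPM in the other blood endothelium, without overlap. Of 25 members tested with mouse as a block, 18 were called lower in aerocytes and 0 higher (all genes: 8.79% lower and 8.11% higher of 6054), with a median log2 difference of -1.51 against 0.04 for all genes.

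Iigp1 and Gbp2, a pair of GTPases, had the largest of these 25 differences. Iigp1 had 83.2 to 531 CPM in aerocytes and 1181 to 2650 CPM in the other blood endothelium, a log2 difference of -2.39 ± 0.21 (SE; edgeR adjusted p = 1.12e-08). Gbp2 had 35.4 to 74.8 CPM against 206 to 396 CPM (-2.25 ± 0.21, SE), and 8 of 9 GTPases were called lower, the exception being Irgm2 (-0.57 ± 0.18, SE). The groups of cells did not overlap for either gene. All 3 IFIT genes tested were called lower, Ifit1 by -1.98 ± 0.22, Ifit3b by -1.88 ± 0.36, and Ifit3 by -1.56 ± 0.24 on the log2 scale (SE). The 7 members not called were Bst2, Stat2, Irf9, Xaf1, Irgm2, Ifi35, and Rtp4, of which Bst2 (tetherin, which holds budding virus at the cell surface) had the value nearest to 0 (0.05 ± 0.16, SE). Stat2 and Irf9, partners in the factor that binds the ISRE, differed by -0.40 ± 0.17 and -0.47 ± 0.20 (SE).

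**Figure D3:**
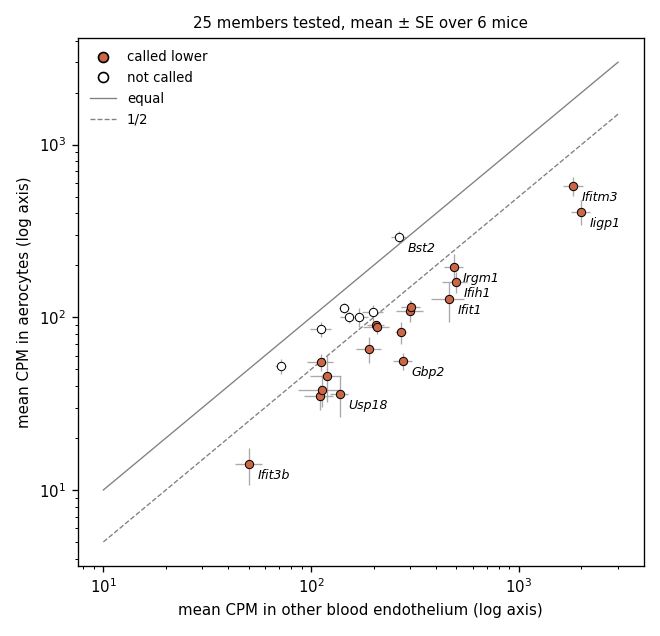
Mean CPM (± SE over 6 mice, log axes) of the 25 tested members in the other blood endothelium (horizontal) and in aerocytes (vertical), with lines for equal and for 1/2 levels. The 18 filled points were called lower in aerocytes, and Bst2, an open point, lies near the line of equality.

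In single cells, a minority of endothelial cells had UMIs of several members. Such counts rise with depth, and whether they exceed those of evenly spread members was not tested. A cell was counted when at least 3 of Ifit1, Ifit2, Ifit3, Ifit3b, Rsad2, Usp18, and Isg15 had a UMI. In endothelium these were 187 of 838 cells (22.3%), in the other blood endothelium 28.2%, and in aerocytes 14.3%. The next gates were classical monocytes (9.44%), fibroblasts (4.63%), and neutrophils (4.06%). T cells had 1.03%, and NK cells 0 of 1374. By mouse, the endothelial share was 17.3%, 16.1%, and 15.5% in IgG1 and 24.5% and 20.3% in ipilimumab replicates 1 and 2 and 57 of 190 cells in replicate 3, without overlap. With each cell thinned to 2000 UMIs, which left out 164 of 838 endothelial cells as too shallow, the share was 12.6% in all, 20.8% in the other blood endothelium, 3.50% in aerocytes, and 1.19% in classical monocytes. It was then 5.22%, 13.04%, and 7.79% in IgG1 and 17.2%, 13.7%, and 15.9% in ipilimumab mice, again without overlap but with 1 IgG1 mouse close to the lowest ipilimumab mouse. Thinning left out 84 of 229 cells in ipilimumab replicate 1 but 7 of 84 in IgG1 replicate 3. In each subset alone, the thinned shares overlapped between the groups. In aerocytes, IgG1 replicates 2 and 3 had 3.85% each, and ipilimumab replicates 2 and 3 had 2.56% and 0 of 74 cells. In the other blood endothelium, IgG1 replicate 2, with 5 of 20 cells, lay above ipilimumab replicates 1 and 2 (22.4% and 19.4%). Without thinning, only the aerocyte shares overlapped.

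The question of the study's main comparison is what CTLA4 blockade changed in the injured lung. In endothelial cells, no member passed the test between ipilimumab and IgG1, but the members as a list lay toward higher values with ipilimumab. Of the 33 members that passed the filter on low counts, 0 were called (edgeR quasi-likelihood test, adjusted p below 0.05 with a log2 fold change beyond 0.3 either way), as were 0.0% of all 8120 genes tested. At an unadjusted p under 0.05 there were 19 members, all higher, and 10.6% of all genes (5.87% in that direction). Without ipilimumab replicate 3 there were 12 of 32 members and 523 of 7939 genes. The fold change was positive for 31 of 33 members and 47.8% of all genes, and its median was 0.58 for the members and -0.02 for all genes on the log2 scale. Some of the 33, among them Ifi27l2a, Oas1a, and Oasl1, passed that filter through the ipilimumab mice. Of the 28 members that reached its level in at least 2 mice of each group, 26 were positive and 17 had an unadjusted p under 0.05. Their median was 0.57, against -0.02 for all 7382 such genes. The summed level was 4541 ± 1273 CPM (SD, n = 3) in IgG1 and 6738 ± 805 CPM (SD, n = 3) in ipilimumab mice. The group means of its log2 values differed by 0.60, and by 0.37 without IgG1 replicate 3. DESeq2 called 2 members, Irgm1 and Oasl2, among 22 of all 8120 genes, and edgeR without the filter on low counts called 13 among 306 of 18326. Zbp1, Oas3, and Isg20 did not pass the filter.

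Of all 36 members, every ipilimumab mouse lay above every IgG1 mouse for 14, against 6.48% of all 18326 genes with a UMI, and no member showed the opposite. Ifi27l2a and Oas1a reached the level of the low-count filter in 0 IgG1 mice, so they passed it through the ipilimumab mice and had to differ. Oasl1 reached it in 1 IgG1 mouse and also needed the ipilimumab mice to pass, so its separation was favored but not fixed. Among the 33 tested members 7.57% of all tested genes is the matching share, and with a filter on the mean of all 6 mice the count was 13 of 32 members and 7.63% of genes. With the filter level reached in at least 2 mice of each group, it was 11 of 28 members and 7.37% of genes. The 14 were Ddx58, Gbp3, Ifi27l2a, Ifi35, Ifi44, Ifih1, Igtp, Iigp1, Irgm1, Irgm2, Oas1a, Oasl1, Oasl2, and Usp18. IgG1 replicate 3 had the lowest summed level, 3215 CPM. Without that mouse the median fold change of the members was 0.45, and without ipilimumab replicate 1, the library that stood apart, it was 0.60, each time with 0 members called.

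The 10 members with the smallest unadjusted p in endothelial cells are given by role. They were chosen by p in these same mice, which favors separate groups, so a lack of overlap below is description only. Ifih1, the RNA sensor MDA5, had 303, 245, and 143 CPM in IgG1 and 432, 309, and 455 CPM in ipilimumab mice, a log2 fold change of 0.80 ± 0.25 (SE; edgeR adjusted p = 0.261). The groups were separate by 1 pair, 303 and 309 CPM. Usp18, the negative regulator named above, had 69.1, 47.0, and 34.4 CPM in IgG1 and 86.5, 99.5, and 129 CPM in ipilimumab mice (1.03 ± 0.26, SE; edgeR adjusted p = 0.209), without overlap.

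Of the OAS genes, Oasl2, an OAS-like protein, had 158, 124, and 147 CPM in IgG1 and 250, 225, and 270 CPM in ipilimumab mice, a log2 fold change of 0.79 ± 0.17 (SE; edgeR adjusted p = 0.130). Its neighbor Oasl1, which represses Irf7 translation, had 14.5, 10.1, and 4.92 CPM in IgG1 and 28.8, 34.2, and 29.6 CPM in ipilimumab mice (1.56 ± 0.38, SE; edgeR adjusted p = 0.194). Neither gene overlapped between the groups.

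Of the GTPases, Irgm1, a regulator of autophagy and of the other immunity-related GTPases, had 243, 278, and 152 CPM in IgG1 and 386, 347, and 492 CPM in ipilimumab mice, a log2 fold change of 0.89 ± 0.22 (SE; edgeR adjusted p = 0.198). Igtp had 65.8, 67.1, and 37.7 CPM in IgG1 and 97.9, 87.1, and 119 CPM in ipilimumab mice (0.87 ± 0.24, SE; edgeR adjusted p = 0.226). Both were without overlap, and 8 of the 9 GTPases had an unadjusted p under 0.05, against 10.6% of all genes, but none was called. The exception was Gbp2, at 181, 134, and 107 CPM against 139, 127, and 158 CPM.

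Of the other effectors, Ifi44 had 51.3, 26.8, and 42.6 CPM in IgG1 and 84.7, 68.4, and 140 CPM in ipilimumab mice (1.22 ± 0.30, SE; edgeR adjusted p = 0.194). Isg15 had 132, 205, and 83.6 CPM in IgG1 and 261, 187, and 292 CPM in ipilimumab mice (0.90 ± 0.27, SE; edgeR adjusted p = 0.242). Ifi35 had 116, 83.9, and 102 CPM in IgG1 and 163, 131, and 162 CPM in ipilimumab mice (0.58 ± 0.18, SE; edgeR adjusted p = 0.277). Of these 3, Isg15 alone overlapped, through IgG1 replicate 2.

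Of these 10 members, Ifi27l2a had the smallest p and the fewest UMIs. It had 5.57, 0, and 0 CPM in IgG1 and 19.2, 51.3, and 28.7 CPM in ipilimumab mice, from 5, 0, and 0 and 22, 33, and 33 UMIs. Of the UMIs in ipilimumab replicates 1 to 3, aerocytes held 5, 33, and 27. The fitted log2 fold change was 3.48 ± 0.69 (SE; edgeR adjusted p = 0.122), and its size depends on the mice at 0. The value turned to -0.68 with a looser gate of 2 markers and to -0.90 with clusters in place of gates. All 6 markers of classical monocytes, where Ifi27l2a averaged 1573 CPM, had a higher mean in the endothelial cells of ipilimumab mice, with sums of 35.7, 3.36, and 8.19 CPM in IgG1 and 17.5, 132, and 43.5 CPM in ipilimumab mice against 4066 CPM in classical monocytes themselves. None of the 6 was at 0 in all mice, and their part in the result was not tested.

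**Figure D4:**
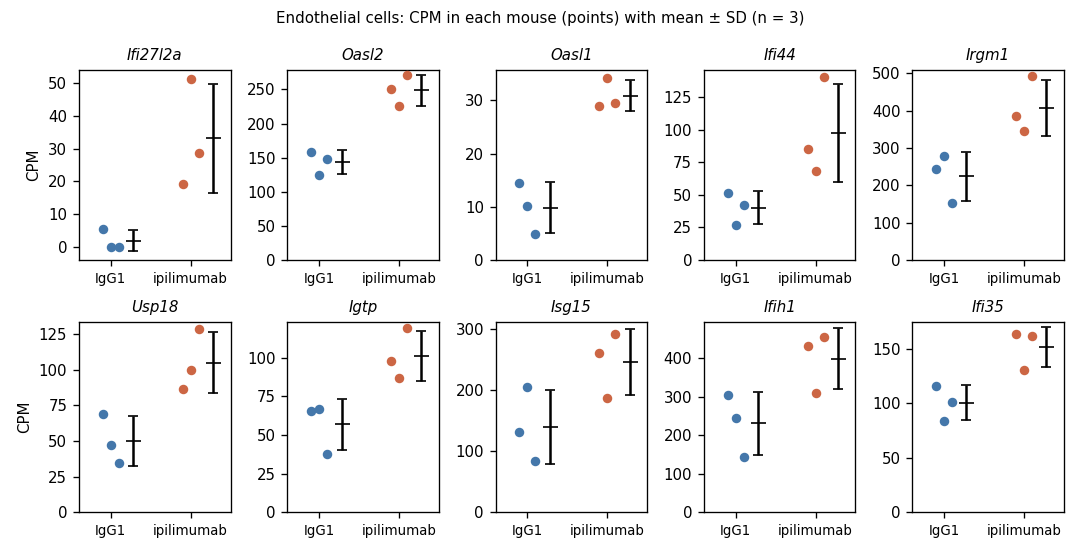
CPM in endothelial cells of each mouse (points) with the group mean ± SD (n = 3), for the 10 members with the smallest unadjusted p. For 9 of them the groups do not overlap, and for Isg15 IgG1 replicate 2, at 205 CPM, lies above ipilimumab replicate 2, at 187 CPM. The members were chosen by p in these same mice, which favors separate groups. Ifi27l2a and Oasl1 also passed the low-count filter through the ipilimumab mice.

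The remaining members had smaller or less even differences. Ifit1 had 163, 322, and 72.1 CPM in IgG1 and 415, 312, and 384 CPM in ipilimumab mice (1.10 ± 0.35, SE; edgeR adjusted p = 0.286), with IgG1 replicate 2 inside the range of the ipilimumab mice. Iigp1 had 774, 1137, and 410 CPM in IgG1 and 1248, 1194, and 1484 CPM in ipilimumab mice, without overlap (0.79 ± 0.28, SE; edgeR adjusted p = 0.323). Factors of the pathway had small values that did not pass, at 0.07 ± 0.22 for Irf9, 0.09 ± 0.17 for Stat2, and 0.23 ± 0.29 for Irf7 (log2 fold change, SE). Bst2 (-0.14 ± 0.16) and Xaf1 (-0.10 ± 0.22, SE) were the 2 members with a negative value. By role, the median log2 fold change was 0.80 for the OAS genes, 0.69 for the GTPases, 0.59 for the IFIT genes, 0.58 for the other antiviral genes, 0.48 for the sensors, and 0.16 for the signaling genes.

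**Figure D5:**
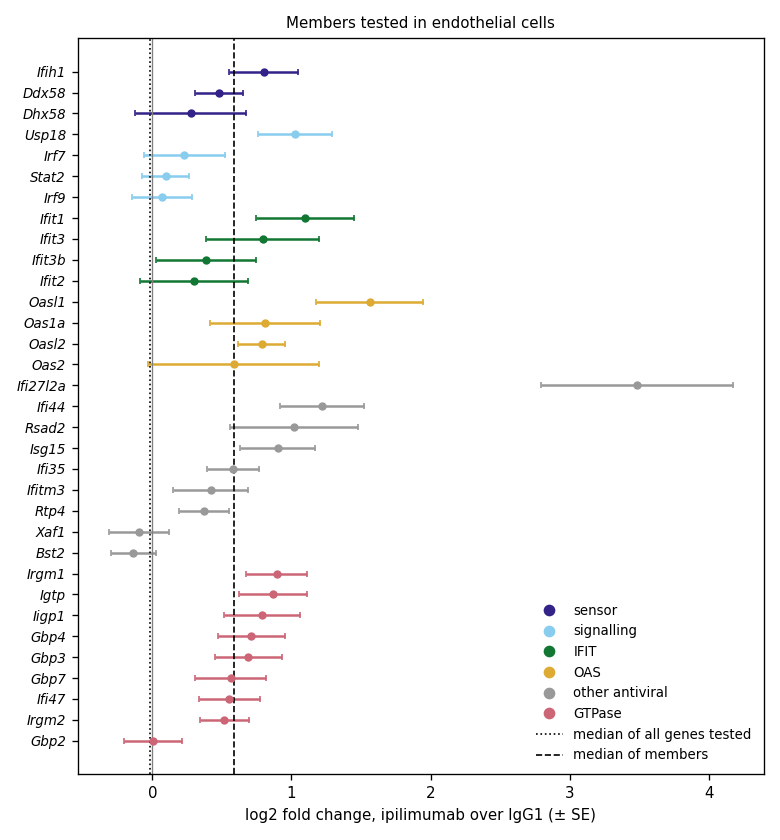
Log2 fold change (± SE) between ipilimumab and IgG1 in endothelial cells for the 33 members tested, colored by role, with the medians of the members (0.58, dashed) and of all genes tested (-0.02, dotted). All but Bst2 and Xaf1 lie to the right of 0, and none passed the adjusted threshold.

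The makeup of the endothelial gate also varied between mice. Aerocytes, in which the members were lower, were 39.7%, 51.8%, and 66.7% of the endothelial cells in IgG1 and 48.5% and 35.8% in ipilimumab replicates 1 and 2 and 76 of 190 in replicate 3. The mouse with the lowest summed level, IgG1 replicate 3, had the highest share of aerocytes, a share that also depends on depth. Other mice went the other way. IgG1 replicate 2 had more aerocytes and a higher sum than IgG1 replicate 1, as did ipilimumab replicate 1 against ipilimumab replicate 2. The part of this makeup in the result was not tested. In each endothelial subset alone, the members again lay toward higher values, with a median log2 fold change of 0.41 in aerocytes (21 of 24 positive) and 0.41 in the other blood endothelium (27 of 29 positive), against 50.1% and 49.2% of all genes positive. No member was called in either, where 0.0154% and 0.0% of all genes were called. At an unadjusted p under 0.05 there were 7 members in aerocytes (8.55% of all genes) and 7 in the other blood endothelium (5.99%). Every ipilimumab mouse lay above every IgG1 mouse for 7 of 24 members in aerocytes, against 7.13% of all genes. The 7 were Ifi35, Ifi44, Igtp, Irgm1, Irgm2, Oasl2, and Usp18. Over genes with a UMI it was 9 of 35 members and 5.39% of genes. In the other blood endothelium it was 4 of 29 (Ifit1, Igtp, Oasl1, and Oasl2, against 5.19%), and Gbp2 lay the other way. Usp18 in aerocytes and Oasl1 in the other blood endothelium reached the filter level in 1 IgG1 mouse each. These 2 passed it through the ipilimumab mice. With the level reached in at least 2 mice of each group, the counts were 6 of 22 members (6.76% of genes) and 3 of 27 (4.61%). Median fold changes of the members were then 0.39 and 0.40, against -0.01 in both for all genes. The summed level overlapped between the groups in both subsets, at 2714, 3702, and 2145 CPM against 4078, 3465, and 3475 CPM in aerocytes and at 6659, 9816, and 7553 CPM against 9567, 8301, and 12135 CPM in the other blood endothelium. Irgm1 (1.08 ± 0.23, SE) and Usp18 (1.59 ± 0.39, SE) had the largest differences by unadjusted p in aerocytes, and Ifit1 (1.10 ± 0.28, SE) in the other blood endothelium. In the interaction test of the 2 subsets, 0 of 30 members were called (0.0276% of all genes). The median endothelial cell had 4805, 4814, and 6812 UMIs in IgG1 and 3501, 4129, and 4900 UMIs in ipilimumab mice, so the cells with most UMIs came from the mouse with the lowest summed level. With cells called by UMI total alone, without those added by their expression profile (20.2% to 37.5% of endothelial cells in IgG1 and 49.5% to 53.3% in ipilimumab mice), the median of the members was 0.63, again with 0 called. Markers of alveolar macrophages, whose own level of the members was low, summed to 37.7 to 172 CPM in the endothelial cells of IgG1 mice and 41.1 to 1206 CPM in those of ipilimumab mice, against 13278 CPM in their own gate, and their part in the result was not tested. The T and B cell markers each had 6 of 6 higher means with ipilimumab, at 3.11 to 44.6 CPM and 6.55 to 64.7 CPM over the 6 mice. The 6 C1q macrophage markers summed to 0 to 2.61 CPM, with C1qc at 0 in every mouse and 4 of 6 means higher with ipilimumab. The 6 fibroblast markers summed to 1.55 to 16.6 CPM, with Pdgfra at 0 and 3 of 6 means higher.

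In the 8 other gates with cells in every mouse, the members did not lie toward higher values with ipilimumab, with medians between -0.29 and 0.06 on the log2 scale. No member was called in any of the 10 other gates tested, and 0.0% of all genes were called in each of them. The median log2 fold change of the members was -0.01 in T cells (33 tested), 0.06 in NK cells (17), -0.05 in B cells (31), and -0.05 in alveolar macrophages (27). It was -0.19 in classical monocytes (27), -0.29 in nonclassical monocytes (12), -0.16 in neutrophils (21), and -0.23 in fibroblasts (23). At an unadjusted p under 0.05 there were 4 members in T cells (6.79% of all genes), 1 in NK cells (5.25%), 3 in B cells (7.16%), 0 in alveolar macrophages (4.12%), and 4 in classical monocytes (4.27%). There were 1 in nonclassical monocytes (6.08%), 2 in neutrophils (3.55%), and 4 in fibroblasts (6.55%). The 4 in T cells, Isg15, Ifitm3, Irgm2, and Iigp1, were all higher with ipilimumab, as was Irgm1 in NK cells. In B cells, Ifitm3 was higher and Oas3 and Oasl1 were lower. C1q macrophages (12 members, 0.55) and conventional dendritic cells (6 members, 0.16) rested on 5 mice, because IgG1 replicate 3 had fewer than 10 cells, with 0 members (3.55% of all genes) and 1 member (7.01%) at an unadjusted p under 0.05. The C1q macrophages of ipilimumab replicate 1 held 4077 CPM of the members against 557 to 1113 CPM in the other 4 mice. Of 33 members in T cells, Isg15 had the smallest p (0.53 ± 0.13, SE; edgeR adjusted p = 0.675), and in classical monocytes Gbp2 (-1.09 ± 0.35, SE; edgeR adjusted p = 0.988).

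Whether the endothelial difference exceeded that in another gate was asked with an interaction term in fits blocked by mouse. Ifi27l2a was called against B cells (log2 difference of effects 3.62 ± 0.61, SE; edgeR adjusted p = 0.0205) and against neutrophils (3.76 ± 0.60, SE; edgeR adjusted p = 0.00959), where 0.223% and 0.194% of all genes were called. Against T and NK cells, classical and nonclassical monocytes, alveolar macrophages, and fibroblasts, 0 members were called, with 0.0% of all genes in 4 of these, 0.134% for NK cells, and 0.0315% for alveolar macrophages. The member values leaned toward endothelium in each comparison, from 28 to 33 positive of 33 to 36 tested, with medians from 0.60 (NK cells) to 1.11 (nonclassical monocytes). Over all genes those medians lay between 0.02 and 0.14. These 8 comparisons share the same endothelial samples. Both Ifi27l2a calls were lost with the looser gate and with clusters in place of gates, and that against neutrophils also without IgG1 replicate 2.

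The rest of the interferon pathway was read from 38 other genes. No pathway gene was called between treatments in endothelial cells, where 24 were tested and 7 had an unadjusted p under 0.05 (10.6% of all genes). The smallest p belonged to Eif2ak2 (PKR, the kinase that halts translation on double-stranded RNA), at 0.87 ± 0.19 (SE; edgeR adjusted p = 0.130). The receptors did not pass, at 0.03 ± 0.24 for Ifnar1, 0.19 ± 0.20 for Ifnar2, -0.08 ± 0.19 for Ifngr1, and 0.00 ± 0.23 for Ifngr2 (SE). Against the other gates, 7 of 30 pathway genes were called higher in endothelium and 6 lower. With 24.1% and 14.5% of all genes called, these shares are near the background, and the values that follow describe single genes. Higher were the endosomal RNA sensor Tlr3 (log2 difference 5.58 ± 0.23), the transcription factor Irf1 (2.76 ± 0.08), the DNA sensor Cgas (2.42 ± 0.18), Eif2ak2 (2.39 ± 0.13), the adaptor Mavs (1.06 ± 0.22), and the feedback inhibitors Socs3 (2.12 ± 0.11) and Socs1 (2.08 ± 0.14, all SE). Lower were Ifng (-5.62 ± 1.49), the phosphatase Ptpn6 (-4.02 ± 0.19), Irf5 (-3.29 ± 0.30), Irf8 (-2.10 ± 0.23), the receptor Ifngr1 (-1.58 ± 0.09), and Tlr7 (-1.38 ± 0.53, all SE). In aerocytes against the other blood endothelium, Eif2ak2 (-1.47 ± 0.17), Cgas (-1.62 ± 0.31), Myd88 (-1.34 ± 0.27), Ptpn2 (-1.45 ± 0.21), and Jak2 (-1.11 ± 0.21) were called lower, and Ifngr2 (1.62 ± 0.22, all SE) was called higher, of 21 tested (8.79% of all genes lower and 8.11% higher).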

How the data were processed

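One single-cell library per mouse was aligned by the authors with Cell Ranger (7.0.0 in the submitters' processing notes) to mm10, and the raw UMI counts of every barcode, before any correction of ambient RNA or filtering, were deposited. Members and gene lists were chosen with earlier results of these data known. Cells were called from the UMI total or the expression profile, with at least 200 genes and at most 10% mitochondrial UMIs, and simulated doublets removed neighbors that resembled them. A cell entered a gate with at least 3 of 6 markers and 2 more than for any other type. Counts were summed per mouse and gate with at least 10 cells. Treatment, cell type, and their interaction were tested across all genes with edgeR 4.0.16 (quasi-likelihood, TMM, Benjamini-Hochberg adjustment, filterByExpr) in R 4.3.3, with mouse as a block between cell types. Calls needed an adjusted p below 0.05 and a log2 difference beyond 0.3 (treatment) or 1 (levels). For treatment, p-values measure the spread among 3 mice per group. For levels and interactions, they measure the spread between mice in the differences among gates. The scripts were tested on simulated data. Named members were the 10 with the smallest unadjusted p in endothelium and the 5 at each end of the level comparison, and others were named after their values were seen. Alternatives included DESeq2 1.42.0, Leiden clusters (leidenalg 0.10.2), other filters, and leaving out each mouse. Gene positions and overlaps came from GENCODE on GRCm38, and promoter sequences from RefSeq. One pathway gene is not reported here by name.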

Additional observations from a re-analysis of the deposited data

Results flagged for a closer look

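A pair of results stood out because the treatment difference itself differed between cell types in a test of that difference. For Ifi27l2a, the log2 fold change between ipilimumab and IgG1 was 3.62 higher in endothelial cells than in B cells and 3.76 higher than in neutrophils (edgeR quasi-likelihood adjusted p = 0.0205 and 0.00959). Against the 6 other gates the difference lay between 3.10 and 4.28 and was not called (edgeR adjusted p from 0.0732 to 0.315). With the gate of 2 markers the values against B cells and neutrophils were -0.15 and 0.26, and with clusters in place of gates -0.37 and -0.08. The endothelial level rested on 5 UMIs in IgG1 replicate 1, none in the other IgG1 mice, and 22 to 33 UMIs in each ipilimumab mouse. Aerocytes held 5 of 22 UMIs in ipilimumab replicate 1, all 33 in replicate 2, and 27 of 33 in replicate 3. Replicate 2 also had the highest sum of classical monocyte markers in endothelial cells, 132 CPM, whose part in the result was not tested.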

How the results depend on the processing

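Of 371 alternatives for main results, 325 kept the side of the threshold or moved less than the replicate spread, 33 passed a threshold that the reported fit did not, 5 lost a call, and 8 moved. DESeq2 called 2 members between treatments in endothelium, 1 in conventional dendritic cells (7 of all 4919 genes), and 1 pathway gene (Eif2ak2). Without the filter on low counts, 13 members were called in endothelium, 4 in aerocytes, 4 in fibroblasts, 2 each in B cells, C1q macrophages, nonclassical monocytes, and conventional dendritic cells, 1 each in T cells and the other blood endothelium, and 2 pathway genes. All genes called in endothelium then numbered 306 of 18326, against 0 of 8120 with the filter and 22 of 8120 with DESeq2, and in those other gates they numbered 52 to 246 of 14336 to 22122. For the difference of effects, the fit without that filter called 2 members against T cells, 1 against NK cells, 4 each against B cells, classical monocytes, and neutrophils, 8 each against alveolar macrophages and nonclassical monocytes, and 6 against fibroblasts, among 56 to 204 of all 19535 to 23063 genes. The gate of 2 markers gave 0 calls against B cells, 0 against neutrophils, and 1 against nonclassical monocytes, and clusters gave 0 against B cells and 0 against neutrophils. The cause of these changes was not tested.

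Leaving out each mouse in turn gave 0 to 1 member called in aerocytes (1 without ipilimumab replicate 1). It gave 0 to 1 for the difference from T cells, 1 to 2 from B cells, 0 to 3 from alveolar macrophages, 0 to 1 from classical monocytes, 0 to 2 from nonclassical monocytes, 0 to 2 from neutrophils, and 0 to 2 from fibroblasts. In the fits that called a member, 3 to 96 of all genes were called. The call against neutrophils was lost without IgG1 replicate 2, and without ipilimumab replicate 1 there were 3 calls against alveolar macrophages. Replicate numbers are shared by the groups. The deviations of mice with the same number correlated at -0.15 to 0.17, and those of mice with different numbers at -0.30 to 0.25. With 3 mice per group, these values cannot settle whether mice of the same number share more than the number. With the replicate number as a block, 0 members were called in endothelium (median log2 fold change 0.61), 1 in conventional dendritic cells (Ifitm3, among 13 of 5828 genes), and 1 in aerocytes (Ifi27l2a, among 10 of 7100). The endothelial fold change of Ifi27l2a reversed to -0.68 with the gate of 2 markers and to -0.90 with clusters. The excess of the summed level in endothelium over the median of the other gates was 2.98 as a median over members of log2(CPM + 1), 2.97 without Ifitm3, Bst2, and Ifi27l2a, and 2.88 with clusters. The share of endothelial cells with 3 of 7 members was 12.61% after thinning. The alternatives for aerocytes against the other blood endothelium and the other filters for the count of separate mice were chosen after seeing the data. Zbp1, Oas3, and Isg20 did not pass the filter in endothelium, where each mouse had 56 to 229 cells, and none of the 3 was called without it.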
